A study of Mus musculus with 3 samples.

Results

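Chromatin accessibility around 10 imprinted genes that act on growth was examined in labelled mesenchymal progenitors (MPs) of the developing mouse forelimb and their descendants. The genes were Igf2, H19, Dlk1, Meg3, Cdkn1c, Peg3, Plagl1, Grb10, Mest and Kcnq1ot1, 10 of the 30230 autosomal protein-coding and long noncoding genes of the annotation, and they were named as a list, with earlier results of these data known. Peaks that overlapped the gene body or the 10 kb on either side of it numbered 97 of 190443 at embryonic day (E)12.5, 73 of 102459 at E14.5 and 120 of 213613 at E16.5. Where peaks of the 3 libraries overlapped they were merged, and each merged region that reached into a window was taken whole, giving 127 regions of 266531 in all, with 102, 77 and 120 peaks. Of the 127, 56 held a peak of every library and are called common intervals here. A promoter interval overlapped the stretch between 1000 bp before and 100 bp after a start site of the gene, and all remaining intervals of a window are called other intervals. Every one of the 10 genes had at least 1 common promoter interval and at least 1 common other interval, 11 and 45 in all. In 3 of the 45 not every library had a peak inside the window. At H19 the E12.5 peak, at Dlk1 the E12.5 and E14.5 peaks and at Meg3 the E14.5 peak lay past its edge, and the region was admitted through peaks of the remaining libraries. At H19 and Dlk1 these were the stages with more accessibility, so counts are also given without the 3.

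The nuclei came from Hic1CreERT2/CreERT2;Rosa26LSLtdTomato/tdTomato embryos on a C57BL/6J background, whose dams had been given 7.5 mg tamoxifen by gavage at E10, so that cells with Hic1 activity around that day, and their descendants, carried tdTomato. All 3 groups shared this genotype and treatment, and none was an unlabelled or untreated control. Red cells that lacked blood and endothelial surface markers were sorted from pooled forelimbs, and nuclei were profiled by droplet-based single-nucleus ATAC-seq, which counts the sites where a transposase cuts open DNA. The E12.5 forelimbs had been digested with Dispase and the later ones with Collagenase A, Pronase and DNase, and the E16.5 tissue was a segment around the elbow. In the paper's clustering the MP clusters came mostly from E12.5 or from E14.5. Its chondrocytes, tenocytes and dermal fibroblasts came in similar ratios from E14.5 and E16.5. Stage therefore cannot be told apart from library, digestion, segment or the mix of cell types. Each stage was a single library, so replicate error could not be measured, no test was made, and every interval given below is a 95% interval for counting error only.

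From the earliest to the latest stage the libraries held 8294, 20023 and 14048 nuclei, with medians of 3070, 4496 and 13748 fragments per nucleus. Between 151 and 401 barcodes occurred in both libraries of a pair, and these nuclei were kept. Peaks were narrower at E14.5 and wider at E16.5, and in the 10 windows the called sequence came to 160232, 93612 and 237853 bp. Promoter levels of marker genes were read beside the label of limb mesenchyme. No common promoter interval was found for Ptprc, Spi1, Pecam1, Krt14 and Myog, of blood, endothelium, epithelium and muscle. Per kb of called width the promoters of Prrx1, Twist1, Pdgfra and Col1a1 lay between percentile 17.9 and 54.5 of all genes in the 3 libraries, and Cdh5, Myod1 and Epcam, of endothelium, muscle and epithelium, reached at most percentile 1.45, 12.4 and 29.3, so that Epcam overlapped the mesenchymal genes on this scale.

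Imprinted genes are expressed from only 1 of the parental copies, because a methylation mark laid down in the egg or the sperm is kept through later cell divisions. Growth is the process that these genes are best known for: as a rule, genes expressed from the father's copy promote fetal growth and genes expressed from the mother's copy restrain it. They lie in clusters in which a control region acts on several neighbours at a time, so that Igf2 shares a domain with H19, Dlk1 with Meg3, and Cdkn1c with Kcnq1ot1. In an inbred strain the parental copies carry the same sequence, so all values below are sums over both copies, and an interval open on 1 copy cannot be told apart from an interval open on both at a lower rate. Fewer open nuclei and fewer cuts per open nucleus likewise cannot be told apart in sums over nuclei.

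Promoter windows of 8 of the 10 genes, 15 windows in all, were found in the RefSeq promoter table (GRCm38.p6), each running from 250 bases before to 50 after a start site. Windows of Plagl1, Grb10 and Mest are shown as examples that hold the letters TGCCGC. That hexamer is the recognition sequence of ZFP57, a zinc finger protein that keeps the methylation mark at imprinted control regions. It was searched on both strands, is in capitals below, and was present in 6 of the 15 windows and in 11.6% of the 32851 windows of all genes. The 6 were 1 each of Igf2, Meg3, Plagl1 and Grb10 and 2 of Mest, which start 3 bases apart and hold the same matches, so 5 stretches of DNA were involved. A match is a run of letters and not a measured binding site.
Plagl1 promoter, plus strand, chr10:13090582-13090881: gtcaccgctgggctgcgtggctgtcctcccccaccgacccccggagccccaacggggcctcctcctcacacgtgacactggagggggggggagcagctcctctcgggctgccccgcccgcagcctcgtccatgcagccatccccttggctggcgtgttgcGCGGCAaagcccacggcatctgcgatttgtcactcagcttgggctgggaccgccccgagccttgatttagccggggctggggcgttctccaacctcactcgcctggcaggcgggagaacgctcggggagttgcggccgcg
Grb10 promoter, minus strand, chr11:12037371-12037670: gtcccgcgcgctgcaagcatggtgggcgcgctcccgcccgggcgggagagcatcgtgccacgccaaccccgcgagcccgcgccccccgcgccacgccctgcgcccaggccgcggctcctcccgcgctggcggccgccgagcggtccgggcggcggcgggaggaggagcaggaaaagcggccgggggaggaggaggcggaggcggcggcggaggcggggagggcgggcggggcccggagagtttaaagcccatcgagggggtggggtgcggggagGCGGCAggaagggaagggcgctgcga
Mest promoter, plus strand, chr6:30737800-30738099: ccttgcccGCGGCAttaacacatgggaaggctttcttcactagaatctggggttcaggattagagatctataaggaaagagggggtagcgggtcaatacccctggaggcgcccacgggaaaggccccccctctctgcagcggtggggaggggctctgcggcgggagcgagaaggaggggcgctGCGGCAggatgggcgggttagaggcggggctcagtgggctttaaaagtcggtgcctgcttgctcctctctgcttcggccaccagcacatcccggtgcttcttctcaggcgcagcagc

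The windows also differed in CpG content, the feature that DNA methylation acts on. The ratio of observed to expected CpG was 0.97 in the Grb10 window, 0.70 in that of Plagl1 and 0.59 in that of Mest. Over the 15 windows the median was 0.46, against 0.38 over all windows. The median GC content was 59.3%, against 52.7% over all windows, and the Grb10 window shown had 80%. TGCCGC is itself rich in G and C and holds a CpG, and the part of base composition in its count was not tested. The core ATGGCG of YY1, a factor that binds the Peg3 locus, occurred in 2 of the 15 windows, 1 of Meg3 and 1 of Grb10, and in 8.93% of all.

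From E12.5 to E16.5 none of the 10 promoters passed a 1.5-fold difference in either direction in CPM. Of the 18160 genes with a value 6.39% were higher and 9.76% lower by that much, so a count of 0 of 10 lies near that of all genes. The median log2 ratio of the 10 was 0.08, against -0.01 for all genes. Accessibility is given as CPM, cut sites per 1000000 cut sites in autosomal common intervals. Of the 10 log2 ratios 9 were above 0, but only 5 when libraries were scaled to all counts in called peaks and 4 when counts were divided by the called width. After that division 6 of 10 promoters were at least 1.5-fold higher and 0 lower from E12.5 to E14.5, where 38.0% and 0.551% of all promoters were. From E14.5 to E16.5, 0 were higher and 6 lower, where 0.259% and 61.0% were, and from E12.5 to E16.5, 0 were higher and 1 lower, where 2.51% and 13.6% were.

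Igf2 encodes a fetal growth factor that signals through the IGF1 receptor. Its single promoter interval, which covers most of the gene and a promoter of the antisense gene Igf2os, stood at 86.2 CPM at E12.5, 101 CPM at E14.5 and 112 CPM at E16.5. In CPM the E16.5 level was the highest of the 3, with a log2 ratio to E12.5 of 0.38 (interval 0.33 to 0.44), below the 1.5-fold limit. Called over 12989, 9128 and 15285 bp, it was highest at E14.5 per kb, with log2 ratios per kb of 0.73 from E12.5 to E14.5 and -0.59 from E14.5 to E16.5. H19, the noncoding RNA made from the mother's copy of the same domain, went the other way at its promoter in CPM, with 96.2, 87.2 and 82.0 CPM and a log2 ratio of -0.23 (-0.28 to -0.18). Its promoter interval was called over 12029, 9055 and 11935 bp and spans the whole gene with flanks on both sides. Per kb H19 was also highest at E14.5, with log2 ratios of 0.27 and -0.49 in the first and second step, so in single steps the contrast between the genes held in CPM and not per kb. It also rested on the scaling of CPM. With libraries scaled by the median ratio, Igf2 was not higher in the first step and H19 not lower in the second. Scaled to all counts in called peaks, Igf2 was not higher in the second step and H19 not lower in the first. In CPM the intervals of neighbouring stages did not overlap for either gene.

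Dlk1 encodes a membrane protein with epidermal growth factor repeats that holds back differentiation of progenitors. Its promoter interval, which spans the whole gene, stood at 69.0 CPM at E12.5, 37.1 CPM at E14.5 and 69.1 CPM at E16.5. This was the only member to pass 1.5-fold at a promoter in a single step, 1 of 10 lower from E12.5 to E14.5 where 7.2% of genes were lower and 10.5% higher, and 1 of 10 higher from E14.5 to E16.5 where 5.91% were higher and 9.22% lower. With binarised counts, where a nucleus counts at most 1 time per called peak, the Dlk1 promoter came to 0.27 in that second step and no longer passed. H19 then passed as lower, at -0.62, where 5.28% of genes were higher and 6.25% lower. Both intervals were split into more called peaks at E14.5 than at E16.5, so a nucleus could count more often at E14.5. The low CPM of Dlk1 at E14.5 belongs to a stretch of 3321 called bp, against 11272 and 12807 bp in the other libraries. Per kb of called width the order was the reverse, at 6.12, 11.2 and 5.39 CPM per kb. Meg3, the noncoding RNA of the mother's copy in the Dlk1 domain, had promoter levels of 46.2, 49.0 and 62.9 CPM. Its log2 ratio from E12.5 to E16.5 was 0.45 (0.37 to 0.52), the largest of the 10, and came to -0.06 when divided by called width.

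Cdkn1c, a cyclin-dependent kinase inhibitor that restrains proliferation, had 41.7, 54.4 and 44.9 CPM at its promoter, highest at E14.5. That interval also holds a promoter of another gene. Kcnq1ot1, the long antisense RNA whose transcription from the father's copy silences Cdkn1c and its neighbours, had 29.4, 25.4 and 30.3 CPM, lowest at E14.5. For both the E12.5 and E16.5 levels were close in CPM, with log2 ratios of 0.10 (0.03 to 0.18) and 0.05 (-0.05 to 0.14). Per kb of called width both were lower at E16.5, with log2 ratios of -0.57 for Cdkn1c, just inside the limit, and -0.66 for Kcnq1ot1, the 1 promoter past it. Across the step from E12.5 to E14.5 the median of all promoters itself shifted by 0.24, and across the next step by -0.27, so the Cdkn1c differences of 0.38 and -0.28 sat near that common shift, while the Kcnq1ot1 differences of -0.21 and 0.25 ran against it. Per kb the Kcnq1ot1 promoter stood at 12.2, 13.5 and 7.76 CPM per kb, highest at E14.5, and its differences of 0.14 and -0.80 had the signs of the common shift per kb, 0.49 and -0.66.

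Peg3 and Plagl1 encode zinc finger proteins expressed from the father's copy, and Plagl1 acts on other imprinted genes. The Peg3 promoter, an interval shared with Usp29, stood at 78.8, 93.0 and 92.2 CPM. The Plagl1 promoter stood at 33.7, 44.0 and 45.0 CPM. Both were lowest at E12.5, with log2 ratios from E12.5 to E16.5 of 0.23 (0.17 to 0.28) and 0.42 (0.33 to 0.50). Grb10, an adaptor that restrains signalling by the insulin and IGF1 receptors, and Mest, a hydrolase-like protein of the endoplasmic reticulum, had nearly equal promoter levels at the first and last stage. For Grb10 the levels were 37.8, 45.5 and 38.1 CPM, and for Mest 50.8, 57.8 and 52.5 CPM. The Mest promoter interval also holds a promoter of another gene.

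**Figure D1:**
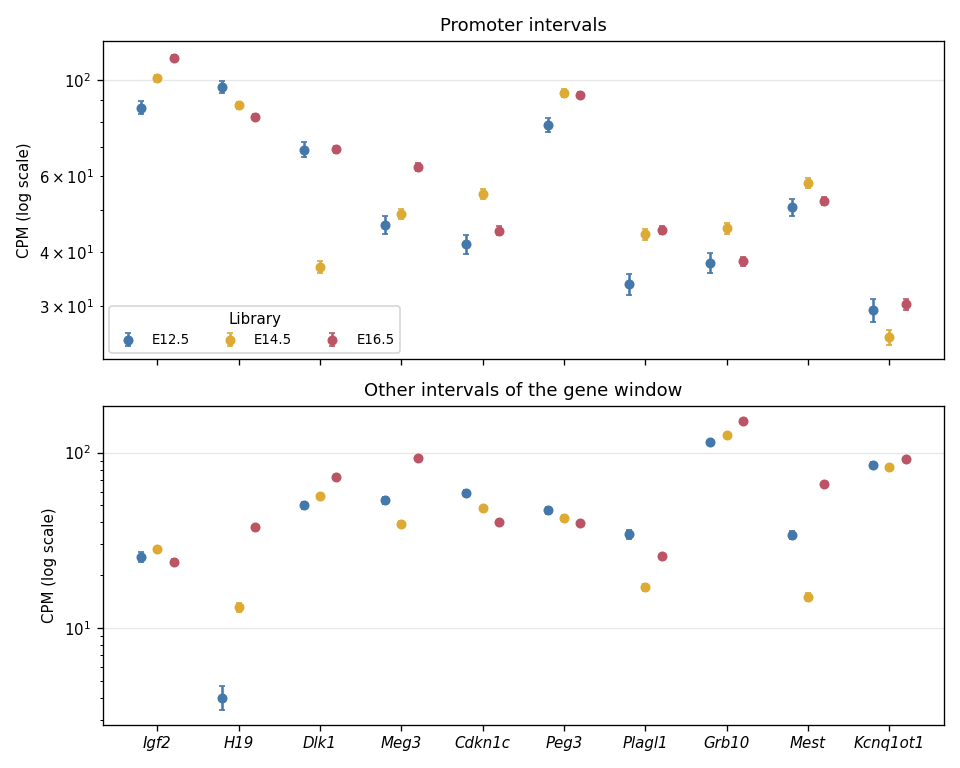
Accessibility in CPM (log axis) of the common promoter intervals (top) and common other intervals (bottom) of the 10 genes in each library, with 95% counting intervals. Promoter levels of a gene lie close together except for Dlk1 at E14.5 (37.1 CPM), while the other intervals of H19 run from 4.01 CPM at E12.5 to 37.4 CPM at E16.5. The H19 region was admitted through later peaks, as its E12.5 peak lies outside the window.

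Levels of different genes were compared per kb of called width. On that scale the E16.5 promoter of Peg3 stood highest at 14.9 CPM per kb, and the remaining 9 lay between 5.39 CPM per kb for Dlk1 and 7.76 CPM per kb for Kcnq1ot1. Peg3 was also highest in the earlier libraries, but others lay closer to it. At E12.5 Peg3 stood at 13.3 and Kcnq1ot1 at 12.2 CPM per kb, and at E14.5 Peg3 stood at 22.1 and Cdkn1c at 18.8 CPM per kb. After every nucleus had been thinned to 1309 fragments, which left out 2073, 502 and 214 shallower nuclei, the share of nuclei with a fragment in the Igf2 promoter interval was 7.56% in the E12.5 library, 11.1% in the E14.5 and 10.6% in the E16.5 library. The unthinned shares were 21.7%, 34.1% and 59.3%, and moved with depth. The thinned shares at the H19 promoter were 8.79%, 9.87% and 8.02%, and those at the Peg3 promoter 7.15%, 10.4% and 8.65%. Thinning counted fragments in all called peaks of each library, and the peak lists differed. Scaled to all counts in called peaks, the median of all promoters shifted by 0.42 in the first step and -0.52 in the second, against 0.24 and -0.27 in CPM. The part of the peak lists in the thinned shares was not tested.

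Outside the promoters the genes differed more from each other. Summed over the other intervals, 3 of 10 genes were at least 1.5-fold higher at E16.5 than at E12.5 and 0 of 10 lower, where 15.6% of the 21304 genes with a value were higher and 14.9% lower. The 3 were H19, Mest and Meg3. Per kb of called width Meg3 turned to -0.34 and Mest came to 0.43, and the counts were 1 higher (H19) and 3 lower (Peg3, Plagl1 and Cdkn1c), where 5.0% of genes were higher and 16.2% lower. In CPM but with a peak of every library in the window, 1 of the 9 genes with a value was higher (Mest) and 0 lower, where 15.6% and 15.0% of all genes were. Meg3 then came to 0.55 and Dlk1 turned to -0.53. H19 had a single such interval, with 4.01 CPM at E12.5, 13.1 CPM at E14.5 and 37.4 CPM at E16.5, each stage above the one before, a log2 ratio of 3.22 (2.99 to 3.46) that lay at percentile 99.5 of all genes. Its E12.5 peak lay outside the window, so the ratio carries that choice, and without this region H19 had no common other interval. With a window of 25 kb, which adds intervals, the H19 sum turned to -0.11, -0.16 and -0.26 in the first step, the second and from first to last. The share of thinned nuclei with a fragment there was 0.42%, 1.57% and 3.64%.

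The other intervals of Mest stood at 33.9, 15.0 and 66.5 CPM, those of Meg3 at 53.4, 39.4 and 92.6 CPM and those of Plagl1 at 34.2, 17.1 and 25.6 CPM. All 3 were lowest at E14.5. From E12.5 to E14.5, 1 of 10 genes was at least 1.5-fold higher (H19) and 2 lower (Mest and Plagl1), where 7.34% of genes were higher and 22.8% lower. From E14.5 to E16.5, 4 were higher (H19, Mest, Meg3 and, just past the limit, Plagl1) and 0 lower, where 22.2% were higher and 5.75% lower. The called width in these intervals moved with the counts: for Mest it was 8456, 1610 and 12314 bp, and per kb the E14.5 library was the highest, at 4.0, 9.32 and 5.40 CPM per kb. Per kb, 4 of 10 genes were higher and 0 lower from E12.5 to E14.5, where 29.0% and 1.32% of genes were, and 0 higher and 7 lower from E14.5 to E16.5, where 0.577% and 50.9% were. The division turned the direction between E14.5 and E16.5 for Mest, Meg3, Plagl1, Dlk1, Grb10 and Kcnq1ot1. With only intervals whose peaks matched in position, which 8 of the 10 genes have, 0 were higher and 1 lower in that step. Of the 17203 genes with such a value 8.16% were higher and 9.26% lower. Meg3 came to -0.67 and Plagl1 to -0.24.

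The remaining 7 genes stayed within 1.5-fold in CPM between E12.5 and E16.5 when their other intervals were summed, though with peaks of matched position Plagl1 came to -1.03. For Igf2 the levels were 25.4, 28.1 and 23.9 CPM, with a log2 ratio of -0.09 (-0.19 to 0.02), and for Dlk1 they were 50.1, 56.3 and 72.3 CPM, with a log2 ratio of 0.53 (0.46 to 0.60). For Cdkn1c the levels were 58.7, 48.5 and 40.1 CPM, lower at each stage, with a log2 ratio of -0.55 (-0.62 to -0.48). Those of Peg3 were 46.9, 42.6 and 39.7 CPM, and include an interval with the promoter of Zim1. Per kb the log2 ratios from E12.5 to E16.5 were -1.59 for Peg3, -0.84 for Plagl1 and -0.63 for Cdkn1c, all past the limit. Without the Zim1 interval Peg3 turned, since its single remaining interval, at -5.78 kb, had 5.15, 9.91 and 8.16 CPM, at least 1.5-fold higher at E16.5 than at E12.5, with a log2 ratio of 0.66 in CPM and 0.34 per kb. Grb10 had the most other intervals, 12, with a sum of 114, 125 and 151 CPM, and Kcnq1ot1 had 8, with 84.9, 82.8 and 92.2 CPM.

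Single intervals were then compared, because sums can hide elements that move in opposite directions. To set peak width aside, an interval was counted only where both the CPM and the CPM per kb of called width differed by at least 1.5-fold in the same direction between E12.5 and E16.5. Of 43 other intervals of the 10 genes with at least 20 fragments in every library and no promoter of another gene, 9 were higher at E16.5 (20.9%) and 5 lower (11.6%). Among the 45257 such intervals of all genes, 14.5% were higher and 21.0% lower. With a peak of every library in the window 7 of 40 were higher and 5 lower, where the shares of all were again 14.5% and 21.0%. By counts alone 19 of the 43 were higher and 6 lower, where 29.4% and 28.3% of all such intervals were, so 10 of the 19 did not pass once divided by the called width.

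Sequences at the centre of 5 of these elements are shown, 300 bases of GRCm38.p6 on the plus strand around the middle of the stretch called in all 3 libraries. They are the Dlk1, Grb10 and Mest elements with the largest ratios per kb, the Kcnq1ot1 element with the lowest, and a Plagl1 element described further on with the cartilage nuclei. Capitals mark, on both strands, ACAATG (SOX factors), TGANTCA (AP-1), TGTGGT (RUNX), TTGGCA (NFI), GGAATG (TEAD) and TAATTA (homeobox factors).
Dlk1 downstream element, chr12:109474089-109474388: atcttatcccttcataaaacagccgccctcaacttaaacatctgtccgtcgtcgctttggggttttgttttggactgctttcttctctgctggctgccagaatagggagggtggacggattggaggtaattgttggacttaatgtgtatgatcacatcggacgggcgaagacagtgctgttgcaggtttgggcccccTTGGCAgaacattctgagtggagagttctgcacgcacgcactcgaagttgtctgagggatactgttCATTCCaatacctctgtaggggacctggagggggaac
Grb10 intronic element, chr11:11965785-11966084: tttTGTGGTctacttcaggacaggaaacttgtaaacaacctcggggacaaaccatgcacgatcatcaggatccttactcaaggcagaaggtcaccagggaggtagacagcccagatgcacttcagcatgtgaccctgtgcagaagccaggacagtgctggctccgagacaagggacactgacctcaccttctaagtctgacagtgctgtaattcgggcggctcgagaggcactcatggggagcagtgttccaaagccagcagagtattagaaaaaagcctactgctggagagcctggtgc
Mest upstream element, chr6:30714908-30715207: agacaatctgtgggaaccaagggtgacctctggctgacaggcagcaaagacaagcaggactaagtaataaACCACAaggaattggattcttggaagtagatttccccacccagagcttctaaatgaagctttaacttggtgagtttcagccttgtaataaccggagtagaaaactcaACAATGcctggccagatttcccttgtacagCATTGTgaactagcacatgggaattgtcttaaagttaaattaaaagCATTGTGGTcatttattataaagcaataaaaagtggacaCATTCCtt
Kcnq1ot1 element, chr7:143288184-143288483: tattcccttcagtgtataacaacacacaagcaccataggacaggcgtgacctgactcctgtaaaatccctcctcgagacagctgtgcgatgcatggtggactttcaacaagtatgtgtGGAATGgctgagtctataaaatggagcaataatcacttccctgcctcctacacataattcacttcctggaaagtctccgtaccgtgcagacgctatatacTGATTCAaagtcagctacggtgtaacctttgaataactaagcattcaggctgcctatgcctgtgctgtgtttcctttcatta
Plagl1 intronic element, chr10:13108613-13108912: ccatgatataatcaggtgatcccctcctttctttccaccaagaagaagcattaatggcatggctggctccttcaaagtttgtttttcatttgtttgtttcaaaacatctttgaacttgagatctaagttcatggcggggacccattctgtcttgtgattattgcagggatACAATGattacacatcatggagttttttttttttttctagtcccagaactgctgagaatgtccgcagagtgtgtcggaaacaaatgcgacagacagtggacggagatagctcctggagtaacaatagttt

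The Mest upstream window held ACAATG 3 times and TGTGGT 2 times, with 1 match of each kind overlapping, and the Plagl1 window held ACAATG 1 time. The background was 66778 windows of the same kind, from autosomal common intervals without a promoter, whether or not they lay near a gene. In these ACAATG was present in 13.5%, TGTGGT in 22.2%, TGANTCA in 13.6%, TTGGCA in 21.3%, GGAATG in 23.1% and TAATTA in 7.32%. In the 40 such windows of 8 of the 10 genes the counts were 8, 9, 3, 7, 10 and 0 in that order. TGANTCA was found once in the Kcnq1ot1 window shown, and the Grb10 window held only 1 match to TGTGGT.

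Among the 9 intervals higher by both measures the largest ratios lay at Dlk1, Grb10 and H19, but those at Dlk1 and H19 are regions admitted through later peaks. Positions are given as the distance of an interval's centre from the most upstream start site of the gene in the GENCODE basic set, with negative values upstream. At Mest and Plagl1 the gene record begins further upstream than that site, so a negative position can lie inside the record. At 21.6 kb from the start of Dlk1, beyond its 3′ end, an interval at chr12:109472733-109476215 stood at 5.51 CPM at E12.5, 21.8 CPM at E14.5 and 41.5 CPM at E16.5. The log2 ratio from first to last stage was 2.91 (2.72 to 3.11) in CPM and 1.93 per kb. The promoter of the same gene had nearly equal CPM at E12.5 and E16.5, with a lower level of 37.1 CPM at E14.5. An interval at -6.80 kb, at chr12:109444978-109447110, had 26.6, 16.2 and 16.2 CPM, lower by -0.71 (-0.82 to -0.61) in CPM and -0.996 per kb.

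At Grb10 a pair of neighbouring intronic intervals were higher at each stage than at the one before. The interval at 71.4 kb, chr11:11965250-11966776, had 2.70, 6.96 and 20.5 CPM, a log2 ratio of 2.92 (2.64 to 3.22) in CPM and 2.36 per kb. The interval at 68.4 kb, chr11:11968423-11969575, had 3.04, 6.25 and 12.3 CPM, a log2 ratio of 2.02 (1.75 to 2.29) and 1.37 per kb. In both the peaks of all libraries matched in position, each pair overlapping by at least 50% of either peak. The 10 remaining other intervals of Grb10 had log2 ratios between -0.70 and 0.97 in CPM and none passed the limit by both measures.

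The H19 interval at -9.77 kb, chr7:142586487-142589347, was called over 688, 1275 and 2861 bp at the 3 stages, and its log2 ratio of 3.22 in CPM came to 1.17 per kb. A Mest interval at -18.8 kb, chr6:30713571-30715807, had 10.7, 12.8 and 24.6 CPM, with a log2 ratio of 1.21 (1.06 to 1.36) and 1.12 per kb. The rest of the 9 were a Meg3 interval at -8.59 kb with 1.49, 2.29 and 7.01 CPM, a Mest interval at -2.97 kb with 2.23, 0.95 and 5.68 CPM, a Kcnq1ot1 interval at 31.5 kb with 6.11, 9.01 and 17.6 CPM, and a Kcnq1ot1 interval at 44.8 kb with 3.62, 0.11 and 10.6 CPM, whose E14.5 peak spans only 21 bp.

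Fewer intervals were lower at E16.5. Within the transcribed stretch of Kcnq1ot1, at 8.3 kb from its start, the interval at chr7:143287796-143288712 had 9.12 CPM at E12.5, 2.97 CPM at E14.5 and 1.25 CPM at E16.5. Its log2 ratio was -2.87 (-3.11 to -2.62) in CPM and -1.94 per kb. At the outer 5′ end of the Plagl1 gene record, -30.0 kb from the first basic start site, lay the interval at chr10:13059909-13061674. It holds the start of that record, and counts as an other interval because the basic set has no start site there. Its levels were 14.1, 7.31 and 4.13 CPM, with log2 ratios of -1.77 (-1.94 to -1.61) and -1.43 per kb. The Kcnq1ot1 and Plagl1 intervals were both lower at each stage than at the one before, and their peaks matched in position. A Meg3 intronic interval at 15.2 kb, with 9.12, 5.23 and 5.18 CPM, and an interval at 21.5 kb from the start of Igf2, past its 3′ end, with 3.22, 2.78 and 1.87 CPM, made up the 5 with the Dlk1 interval at -6.80 kb.

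**Figure D2:**
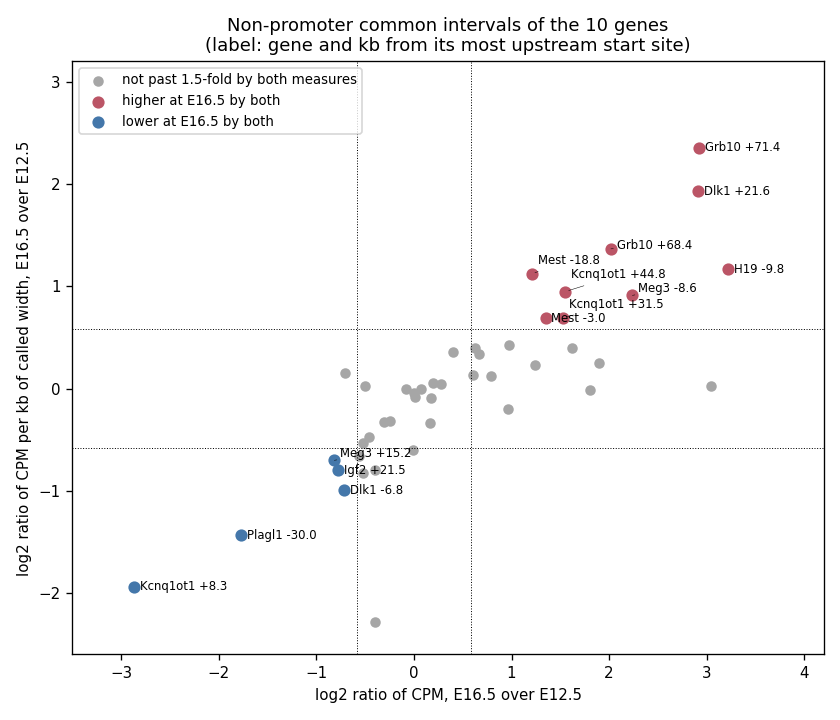
Change from E12.5 to E16.5 of each of the 45 other intervals of the 10 genes, as the log2 ratio of CPM (horizontal) against the log2 ratio of CPM per kb of called width (vertical), with dotted lines at 1.5-fold. Grb10, Dlk1 and H19 intervals lie at the upper right, at 2.92, 2.91 and 3.22 in CPM, and points far to the right near 0 on the vertical axis are intervals whose counts and called width were higher together. The Dlk1 and H19 intervals at the upper right were admitted through later peaks.

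**Figure D3:**
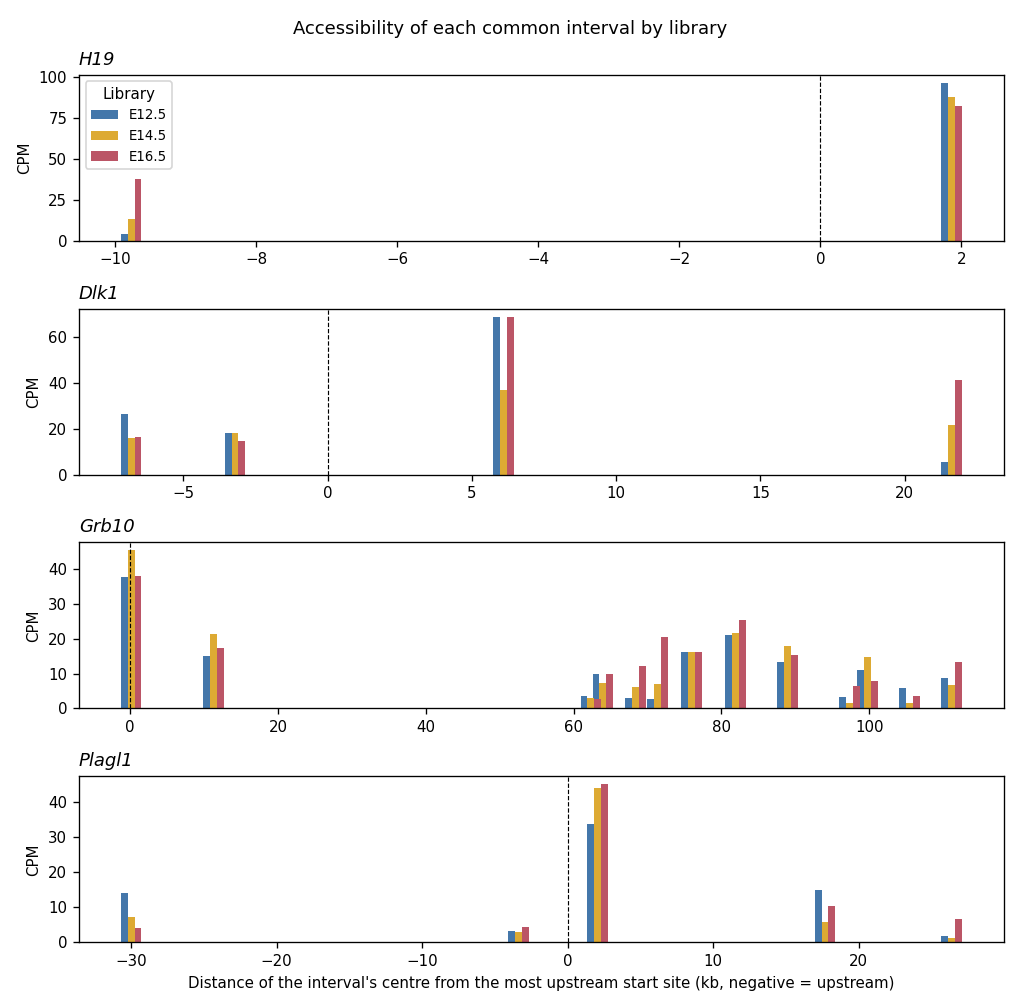
CPM of every common interval of H19, Dlk1, Grb10 and Plagl1 in the 3 libraries, placed by the distance in kb of the interval's centre from the most upstream start site (dashed line; panels have different scales). The H19 interval at -9.77 kb and the Dlk1 interval at 21.6 kb are higher at each stage than at the one before. The H19 promoter lies between 82.0 and 96.2 CPM and the Dlk1 promoter between 37.1 CPM, at E14.5, and 69.1 CPM. The H19 interval at -9.77 kb and the Dlk1 interval at 21.6 kb were admitted through later peaks, so their rise carries that choice.

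Of the 71 regions of the windows without a peak in every library, 44 were called at E16.5 only, 9 at E12.5 only, 0 at E14.5 only and 18 at E12.5 and E16.5. Over the whole genome 181871 regions lacked a peak in at least 1 library, and of these 40.3% were called at E16.5 only, 28.6% at E12.5 only, 0.37% at E14.5 only and 25.1% at E12.5 and E16.5. In the windows of the 10 genes the shares were 62.0%, 12.7%, 0% and 25.4%. Plagl1 had 12 of the 44, among them the largest, a region past the 3′ end with 12.7 CPM at E16.5. The E16.5 library was the deepest per nucleus, and the part of depth in these calls was not tested.

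To ask how the genes stood in nuclei that had opened cartilage loci, each nucleus of the E14.5 and E16.5 libraries was thinned to 3000 fragments and scored by its fragments at 18 cartilage genes, among them Col2a1, Acan and Sox9. A gate took the nuclei with at least 7 such fragments, at most 10% of the library: 1179 of 13657 nuclei at E14.5 and 1160 of 12864 at E16.5. The gate is a range of this score and not a cell type, and 815 and 448 nuclei lay 1 fragment below it. Gates were set in the same way on tendon, fibroblast and dermal genes. The nuclei below a gate served as the comparison, so both sides came from 1 library, and nuclei are not replicates.

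H19 was the member whose promoter interval, which spans the whole gene and its flanks, differed most in the cartilage gate. At E14.5 its promoter interval stood at 127 CPM inside the gate and 84.7 CPM below it, a log2 ratio of 0.58 (0.48 to 0.68), and at E16.5 at 138 and 77.3 CPM, a log2 ratio of 0.83 (0.76 to 0.91). The H19 interval at -9.77 kb went the opposite way, with 8.52 CPM inside and 13.6 CPM below at E14.5 (log2 ratio -0.67, -1.06 to -0.31) and 20.5 and 38.8 CPM at E16.5 (-0.92, -1.10 to -0.74). Igf2 in the same domain differed less, with promoter log2 ratios of 0.09 (-0.01 to 0.20) and 0.18 (0.11 to 0.26). At E16.5 the Mest promoter was also past the limit, with 82.1 CPM inside and 50 CPM below (0.72, 0.62 to 0.81), in an interval that also holds a promoter of another gene. So were the summed other intervals of Plagl1, with 68.4 and 22.1 CPM (1.63, 1.52 to 1.74).

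In all, 1 of the 20 values (10 promoter, 10 other), the H19 interval at -9.77 kb, passed 1.5-fold at E14.5 and 4 of 20 at E16.5, where 7.65% and 16.3% of all such values did in either direction. The call at E14.5 was lost with nuclei thinned to 2000 fragments, and the count at E16.5 ran from 2 with binarised counts to 9 with a gate of at most 5% of nuclei. No share of all values is given for these alternatives, so their counts were not set against a background. The gated E16.5 nuclei had a larger share of their counts in promoters, 43.3% against 39.2%, and fewer fragments, a median of 11692.5 against 15281.5, and the median of all promoters was higher in the gate by 0.10 on the log2 scale. The part of these in the result was not tested. At E14.5 the same shares were 55.8% and 55.4%.

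The other gates separated the members less, and at E16.5 they also separated their own scoring genes less. Inside the tendon, fibroblast and dermal gates those genes had log2 ratios of 0.71, 0.66 and 0.66 at E16.5, against 1.84 for cartilage. At E14.5 the ratios were 1.07, 1.23 and 0.96, against 1.25. In each of these gates more nuclei lay 1 fragment below the cut than inside. The part of this in the lower counts was not tested. The tendon and fibroblast gates had 0 of 20 values past the limit at either stage, where 0.817% and 1.55% of all values passed at E14.5 and 2.15% and 1.82% at E16.5. The dermal gate had 0 of 20 at E14.5, where 2.77% passed, and 1 of 20 at E16.5, the H19 interval at -9.77 kb with 23.3 CPM inside and 38.3 CPM below, where 6.38% passed. That call was lost with 2000 fragments, without the deepest 5% of nuclei and with binarised counts.

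Single intervals were also read in the cartilage gate. Of the members' common intervals with at least 20 fragments on both sides, 8 of 48 were at least 1.5-fold higher in the gate at E14.5 and 8 lower, where 13.2% of all common intervals were higher and 11.2% lower. At E16.5, 11 of 53 were higher and 12 lower, where 14.7% were higher and 26.1% lower. These counts lay near the shares of all common intervals. The higher member intervals lay at genes of both parental classes. An interval in the body of Plagl1 at 17.7 kb, chr10:13106720-13110219, stood at 49.8 CPM inside the gate and 7.17 CPM below it at E16.5, a log2 ratio of 2.79 (2.65 to 2.94), against 0.63 (0.24 to 1.01) at E14.5. Over whole libraries this interval had 15.0, 5.69 and 10.4 CPM, highest at E12.5 and lowest at E14.5.

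A small Mest interval at -2.97 kb, chr6:30729996-30731069, lies within the gene record. It had 30.4 CPM inside the gate and 3.63 CPM below at E16.5, the largest ratio at 3.07 (2.88 to 3.25), and 1.91 (1.29 to 2.50) at E14.5 on 32 fragments in the gate. At Meg3 the intervals at -8.59 kb and -5.70 kb had log2 ratios of 2.20 and 0.75 at E14.5 and 2.48 and 1.77 at E16.5. In Kcnq1ot1 the intervals at 23.2 kb and 4.36 kb had 1.65 and 2.46 at E14.5 and 2.57 and 1.73 at E16.5. In Grb10 the intervals at 82.0 kb and 89.0 kb had 1.35 and 0.87 at E14.5 and 1.81 and 1.41 at E16.5. All of these were past the limit at both stages, which are separate libraries.

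The elements with more accessibility at later stages were mostly lower in the gate. The Dlk1 element at 21.6 kb had 14.9 CPM inside and 43.8 CPM below at E16.5, a log2 ratio of -1.56 (-1.77 to -1.35), and -1.24 (-1.61 to -0.90) at E14.5. The Grb10 elements at 71.4 and 68.4 kb had -1.30 and -1.03 at E16.5, and the Mest element at -18.8 kb had -1.10. Of the 9 intervals higher at E16.5 than at E12.5 by both measures, 6 were at least 1.5-fold lower in the E16.5 cartilage gate and 2 higher, the Mest interval at -2.97 kb and the Meg3 interval at -8.59 kb. The 6 include the Dlk1 and H19 regions admitted through later peaks. Among the 6414 intervals of all genes that were higher at E16.5 by both measures 57.0% were lower in the gate and 12.1% higher, so the members' split resembled that of intervals in general. Grb10 thus held intervals with opposite ratios along its body, from -1.30 at 71.4 kb through 1.81 at 82.0 kb to -1.33 at 99.8 kb.

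In the E16.5 dermal gate 14 of 53 member intervals were at least 1.5-fold lower and 1 higher, where 11.5% and 11.4% of all common intervals were. With values in both gates, 13 of the 14 could be read in the cartilage gate too, where 7 were at least 1.5-fold higher and 5 lower. Of the 7980 intervals of all genes that were lower in the dermal gate, 23.3% were higher in the cartilage gate and 36.3% lower. Among the 7 was the Kcnq1ot1 interval at 23.2 kb with 3.82 CPM inside and 8.20 CPM below (-1.10, -1.60 to -0.64). The interval higher in the dermal gate was that of Peg3 at -5.78 kb, chr7:6735570-6736824, with 15.4 and 7.73 CPM (0.99, 0.74 to 1.23). In the cartilage gate the same interval was lower, with 4.14 and 8.52 CPM (-1.04, -1.46 to -0.65) at E16.5.

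**Figure D4:**
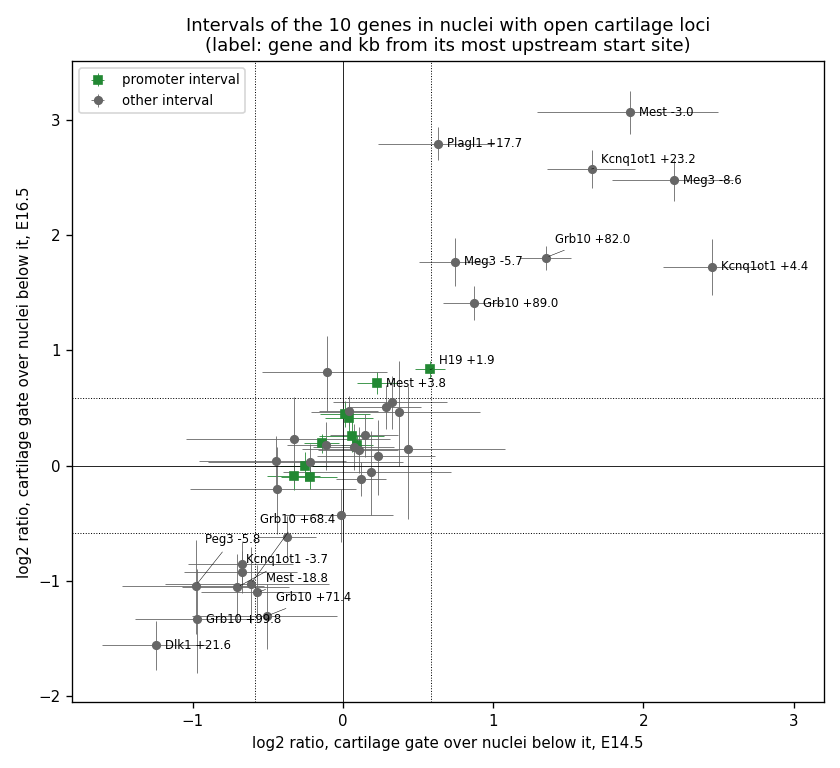
Log2 ratio of CPM in the cartilage gate over the nuclei below it at E14.5 (horizontal) and E16.5 (vertical) for the 46 intervals of the 10 genes with enough fragments in both libraries, with 95% counting intervals and dotted lines at 1.5-fold. Intervals of Mest, Plagl1, Kcnq1ot1, Meg3 and Grb10 lie at the upper right (1.41 to 3.07 at E16.5), and the Dlk1 element at 21.6 kb lies at the lower left (-1.24 and -1.56).

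Genes that work with the 10 were read from 3 lists. Of 47 other imprinted genes 38 had a promoter value, and between E12.5 and E16.5 3 were at least 1.5-fold higher and 4 lower, with a median log2 ratio of -0.03. Higher were Klf14, a zinc finger gene of the Mest domain (11.7 CPM at E12.5, 22.9 CPM at E16.5, log2 ratio 0.97), Dcn, which encodes the matrix proteoglycan decorin (20.8 and 38.6 CPM, 0.89), and Zdbf2 (19.1 and 29.3 CPM, 0.62). Lower were Calcr, the calcitonin receptor (13.8 and 6.94 CPM, -0.99), Snrpn, a splicing protein gene (14.1 and 7.73 CPM, -0.86), and Phlda2, a growth restrainer in the Kcnq1ot1 domain (30.1 and 19.6 CPM, -0.62). Per kb of called width 1 of the 38 was higher and 7 lower. On that scale Klf14 came to 0.74, Dcn to -0.05 and Zdbf2 to -0.06, so Dcn and Zdbf2 were no longer higher, while Calcr, Snrpn and Phlda2 came to -0.88, -0.80 and -0.58, just inside the limit for Phlda2.

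Of 21 genes of the IGF axis, the ligand, receptor and binding-protein system through which Igf2 and Grb10 act, 20 had a promoter value, 3 higher and 2 lower, with a median of 0.02. Igfbp6, a binding protein that favours IGF2, had 15.9 CPM at E12.5, 24.9 CPM at E14.5 and 49.1 CPM at E16.5, a log2 ratio of 1.63. Igfbp7 (0.85) and the kinase gene Akt1 (0.60) were the other two higher, and Igfbp2 (-0.74) and Pappa (-0.64), which encodes a protease of IGF binding proteins, were lower. Per kb Igfbp6 came to 0.71 and was the only one higher, and Igfbp2 and Pappa remained lower, at -0.73 and -0.63. Of 14 genes that read, write or keep imprints, such as Zfp57, Trim28 and Dnmt1, 12 had a value and 0 passed 1.5-fold in either direction, in CPM or per kb, with a median of 0.04. The background for these 3 counts is the 6.39% higher and 9.76% lower given above for promoters, with the shares per kb given there too.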

How the data were processed

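Single-nucleus ATAC-seq had been run on 3 libraries of sorted tdTomato-labelled forelimb cells, 1 per stage. The deposited matrices hold raw counts of transposase cut sites, by peak and by nucleus, which the authors made with Cell Ranger ATAC on mm10 (version 1.1.0 per the processing notes, 1.0.1, 1.0.1 and 1.2.0 per the file headers) and did not normalise. Each library had its own peak call, and the lists carry no scores. The peak lists are coordinates, compared by an overlap of 1 bp. From 89.5% to 94.1% of entries were even, so fragments were taken as cut sites divided by 2 and rounded up.

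Genes and start sites came from the GENCODE vM21 basic set on GRCm38, the assembly of mm10. CPM is cut sites per 1000000 in autosomal common intervals. Ratios needed at least 20 fragments in each library and carry exact conditional Poisson intervals at 95% confidence, computed on fragments, and shares of nuclei carry Clopper-Pearson intervals. A difference was counted at 1.5-fold, beside the share of all autosomal protein-coding and lncRNA genes (or their intervals) past it, and no test was made because each stage had 1 library. All deposited nuclei were used, no doublet caller was run, and gates left out the 6366 and 1184 nuclei of the E14.5 and E16.5 libraries with under 3000 fragments. Intervals of the 10 genes were kept out of the gate scores, and panel genes were left out of the background. The interval function was tested on simulated data. Python 3.11.15, numpy 2.4.6, scipy 1.17.1 and pandas 2.3.3 were used.

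The members and lists were chosen with earlier results of these data known. All 10 members are named, and from each list the genes past 1.5-fold at promoters from E12.5 to E16.5, up to the 3 largest in each direction. The comparison of single intervals, with its limit per kb and its gate values, the values per kb of listed and marker genes, the condition that a peak of every library reach the window, and the choice of printed sequences were added after the values had been seen. Sequences are from RefSeq and GRCm38.p6, and those of H19 and Cdkn1c are not shown. Alternatives changed the scaling, value, peaks, windows, promoter definition, nuclei and gates 1 at a time.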

Additional observations from a re-analysis of the deposited data

How the results depend on the processing

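No paired analysis was possible because each stage has 1 library. Most alternatives left most counts within 1.5 times but moved at least 1 count by more. Division by called width moved 4 counts and left 2, and peaks of matched position moved 3 and left 3. Each count adds both directions, so a turn of direction with a similar total is not seen in it. Of single member ratios, division by called width took 48 outside their counting interval, turned 7 and left 5. Scaling to all counts in called peaks moved 52 and left 8. Division by called width gave 6 of 10 promoters past 1.5-fold from E12.5 to E14.5 (all higher), 6 from E14.5 to E16.5 (all lower) and 1 from E12.5 to E16.5 (Kcnq1ot1, lower). Of other sums 7 of 10 passed from E14.5 to E16.5, all lower, and from E12.5 to E16.5 1 was higher and 3 lower in place of 3 and 0. It turned Dlk1 at the promoter to 0.87 and -1.05 for the first and second step, Mest other intervals to 1.22 and -0.79, Meg3 other intervals to -1.17 from E14.5 and -0.34 from E12.5 to E16.5, and Plagl1 other intervals to -0.81 from E14.5 to E16.5. With peaks of matched position, which 2 members have at promoters and 8 at other intervals, 0 promoters passed in either step. In the first step 11.4% of all promoters were higher and 2.93% lower, and in the second 1.37% and 10.8%. From E14.5 to E16.5 1 other sum was lower, where 8.16% of genes were higher and 9.26% lower. From E12.5 to E16.5 1 other sum was higher (Peg3) and 1 lower (Plagl1, -1.03), where 9.34% and 15.5% of genes were. Meg3 came to -0.67 and -0.18 and Plagl1 to -0.24. Median ratio scaling gave 2 promoters from E14.5 to E16.5, both higher. All peaks in place of common ones gave 4 higher other sums and 1 lower from E12.5 to E16.5, where 21.6% of genes were higher and 12.7% lower. From E14.5 to E16.5 they gave 5 higher and 0 lower, where 41.6% and 2.53% of genes were. With a peak of every library in the window, an alternative added after the values had been seen, 1 other sum passed from E12.5 to E16.5, as higher, where 15.6% of genes were higher and 15.0% lower. A window of 25 kb gave 1 lower other sum from E12.5 to E14.5, where 5.12% of genes were higher and 16.9% lower. From E12.5 to E16.5 it gave 1 higher, where 11.4% were higher and 12.4% lower. It took H19 to -0.11, -0.16 and -0.26, since that window adds intervals to the single one of H19. Of all promoters, 10.5% were higher and 7.2% lower from E12.5 to E14.5, but 2.43% and 11.2% by median ratio scaling and 27.4% and 5.41% scaled to all counts in called peaks. From E14.5 to E16.5 the shares of 5.91% and 9.22% became 9.21% and 2.73%, and 4.08% and 39.2%. For other sums, scaling to all counts in called peaks moved 7.34% and 22.8% to 13.7% and 16.4% in the first step and 22.2% and 5.75% to 13.7% and 16.7% in the second.

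A cartilage gate of at most 5% of nuclei gave 2 of 20 values at E14.5 and 9 at E16.5, thinning to 2000 fragments gave 0 at E14.5, leaving out the deepest 5% of nuclei gave 2 at E14.5, and binarised counts gave 2 at E16.5. The dermal gate gave 1 at E14.5 with 2000 fragments and 1 without the deepest 5%. At E16.5 it gave 2 with the 5% gate and 0 with 2000 fragments, 0 without the deepest 5% and 0 with binarised counts. No share of all values is given for these gate alternatives, so their counts were not set against a background. The cause of these shifts was not tested. Depth limited the E12.5 library most, where the H19 interval at -9.77 kb rests on 156 fragments.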
